A study of Mus musculus with 39 samples.

Results

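The UDP-glucuronosyltransferases (Ugt) and cytosolic sulfotransferases (Sult) were followed through 3 segments of the mouse gut in the strains BALB/cJ and C57BL/6J. Members were taken by name alone: every symbol of the 3 tissue tables that starts with Ugt1, Ugt2 or Ugt3, or with Sult and a digit, leaving out 6 names that carry the pseudogene suffix -ps. The rule found 42 of 34600 entries, 21 Ugt (9 Ugt1, 10 Ugt2 and 2 Ugt3) and 21 Sult (6 Sult1, 9 Sult2 and 6 of other subfamilies). Total RNA was sequenced after removal of ribosomal RNA from colon, ileum and duodenum/jejunum of 6 BALB/cJ and 7 C57BL/6J mice, which makes 39 libraries in 6 groups. Both strains are inbred. The labels give each library a strain, a tissue and a number, and the number was taken as the mouse. They name no treatment or altered gene, and are silent on age, sex and sampling day. The labels state strain and tissue as the factors, and the comparisons below are those of strain within a tissue, of tissue over both strains, and of the strain difference between tissues. Levels are TPM, a measure of transcript abundance relative to all transcripts of a library, scaled for transcript length within each library.

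Ugt enzymes sit in the membrane of the endoplasmic reticulum and join glucuronic acid from UDP-glucuronic acid to bilirubin, steroids, bile acids, phenols and drugs. Sult enzymes work in the cytosol and transfer sulfate from the donor PAPS to phenols, catecholamines, thyroid hormones, steroids and sterols. The conjugates are more soluble in water and leave the cell through export pumps, and in the gut both families act on compounds of the food and of bile before these reach the liver. The Ugt1a transcripts come from a shared gene region, in which each has a first exon of its own and all share the remaining exons, whereas most Ugt2 and Sult members are separate genes.

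By the RefSeq annotation of GRCm38.p6, the 9 Ugt1a members overlap on chromosome 1 between positions 88055411 and 88220002. All 10 Ugt2 members lie on chromosome 5, and Sult1b1, Sult1d1 and Sult1e1 follow them there, so that 13 members share the stretch from 86889770 to 87591611. Within it Ugt2b35 (chr5:87000860-87013274), Ugt2b36 (chr5:87065927-87092555) and Ugt2b5 (chr5:87124946-87140340) are consecutive members. Sult1a1 (chr7:126672865-126690443), Sult2b1 (chr7:45729981-45759672) and the Sult2a genes lie on chromosome 7, and Sult6b2 (chr6:142785781-142804466) on chromosome 6. Sequence shared between members limits how surely reads can be given to one of them. In the GENCODE M21 transcripts, 52.97% (Ugt1a6a) to 84.2% (Ugt1a6b) of the 31-base words of a Ugt1a member also occur in another gene. The share was 97.8% for Ugt2a1, 56.4% for Ugt2b5 and 52.9% for Ugt2b38, but 11.99% for Ugt2b36, 4.37% for Ugt2b35 and 2.95% for Ugt2b34. Sult1b1, Sult1d1, Sult2b1 and Sult6b2 shared no such word with another gene. Values of single Ugt1a members and the split between Ugt2b5 and Ugt2b38 are therefore uncertain. The submitters' processing notes name the same reference, GRCm38, for the libraries of both strains. Whether sequence differences between the strains shifted reads between members, and so the strain differences below, was not tested.

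The bases before the start site are shown for Ugt2b36, Ugt2b5 and Ugt2b35 because their levels differed between the strains in the proximal gut. Ugt2b38 is shown as a near copy of Ugt2b5 that was not called, although it leaned the same way with a wide error. RefSeq promoter windows on GRCm38.p6 matched 36 of the 42 members with 39 windows, and only the 250 bases before the start are printed or searched. The run gataaaaggtcaagcagtgaca, 22 bases long, occurs in the windows of Ugt2b36, Ugt2b5, Ugt2b38 and Ugt2b37 and in no other of the 32536 mouse windows of that length. Its first base lies 31, 28, 31 and 45 bases before the start in that order. The windows of Ugt2b36 (chr5:87092556-87092805, minus strand), Ugt2b5 (chr5:87140341-87140590, minus strand), Ugt2b38 (chr5:87424204-87424453, minus strand) and Ugt2b35 (chr5:87000610-87000859, plus strand) follow 5′ to 3′, with the run in capitals. The window of Ugt2b35 does not hold it. All windows are reference sequence and no BALB/cJ sequence was examined, so they cannot show whether the strains differ in these bases.
Ugt2b36: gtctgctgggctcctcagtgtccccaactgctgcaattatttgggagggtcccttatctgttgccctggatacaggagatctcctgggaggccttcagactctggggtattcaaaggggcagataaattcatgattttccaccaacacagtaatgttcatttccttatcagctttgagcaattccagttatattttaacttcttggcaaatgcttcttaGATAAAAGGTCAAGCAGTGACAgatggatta
Ugt2b5: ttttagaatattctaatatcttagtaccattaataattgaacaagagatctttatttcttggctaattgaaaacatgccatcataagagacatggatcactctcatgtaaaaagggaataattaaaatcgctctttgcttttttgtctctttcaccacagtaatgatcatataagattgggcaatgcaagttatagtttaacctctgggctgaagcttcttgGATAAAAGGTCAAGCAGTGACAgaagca
Ugt2b38: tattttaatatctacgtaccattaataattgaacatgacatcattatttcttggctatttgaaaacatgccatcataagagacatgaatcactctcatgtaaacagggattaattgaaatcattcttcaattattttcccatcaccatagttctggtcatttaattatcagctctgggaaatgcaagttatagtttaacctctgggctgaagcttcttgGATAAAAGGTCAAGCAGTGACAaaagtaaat
Ugt2b35: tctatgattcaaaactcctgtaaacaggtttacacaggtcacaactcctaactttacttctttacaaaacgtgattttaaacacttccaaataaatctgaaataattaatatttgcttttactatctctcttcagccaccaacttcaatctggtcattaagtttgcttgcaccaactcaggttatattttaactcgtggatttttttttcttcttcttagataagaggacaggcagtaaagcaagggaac

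The windows were searched for short motifs on both strands. GTTAAT, the core of sites bound by the epithelial factor HNF1, was found in 13 of the 39 member windows and in 6.47% of all windows. The 13 include Sult2a3, Sult2a4, Sult2a5 and Sult2a6, whose windows resemble one another, so they are not all separate occurrences. TATAAA (a core promoter element) was found in 10 member windows against 12.3% of all, and AGATAA (a core bound by Gata4 and Gata6) in 9 against 9.97%. GCGTG (the core bound by the aryl hydrocarbon receptor) was in 5 against 28.3%, TTTATG (a CDX site) in 2 against 10.8%, and TGACNNNGC (an Nrf2 core) in 0 against 10.2%. No motif searched is part of another, and in Ugt2b36 an AGATAA match overlaps the start of the shared run. The windows of Ugt1a1 (chr1:88211709-88211958, plus strand), Ugt1a6a (chr1:88134559-88134808, plus strand), Ugt2a3 (chr5:87337196-87337445, minus strand) and Sult1a1 (chr7:126676419-126676668, minus strand) hold GTTAAT or its reverse complement, in capitals. They are shown as members with different tissue patterns that hold the motif. The Sult1a1 window lies within the annotated span of that gene, chr7:126672865-126690443, so it precedes a start inside the gene and not its outer end. A match is a run of letters and was not tested as a binding site.
Ugt1a1: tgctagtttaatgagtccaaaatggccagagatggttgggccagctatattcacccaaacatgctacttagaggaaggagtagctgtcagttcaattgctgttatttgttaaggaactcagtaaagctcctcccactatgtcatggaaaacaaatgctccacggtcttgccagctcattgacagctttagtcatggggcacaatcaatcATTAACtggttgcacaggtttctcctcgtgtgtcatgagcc
Ugt1a6a: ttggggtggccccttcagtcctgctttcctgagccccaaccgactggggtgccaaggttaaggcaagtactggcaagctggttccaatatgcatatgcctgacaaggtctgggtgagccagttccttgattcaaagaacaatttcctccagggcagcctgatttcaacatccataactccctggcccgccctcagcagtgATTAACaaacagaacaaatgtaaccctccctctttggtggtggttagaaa
Ugt2a3: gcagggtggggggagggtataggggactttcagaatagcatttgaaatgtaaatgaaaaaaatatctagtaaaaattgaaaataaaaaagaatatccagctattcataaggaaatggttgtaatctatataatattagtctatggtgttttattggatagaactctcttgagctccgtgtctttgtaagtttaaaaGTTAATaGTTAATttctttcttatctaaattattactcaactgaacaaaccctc
Sult1a1: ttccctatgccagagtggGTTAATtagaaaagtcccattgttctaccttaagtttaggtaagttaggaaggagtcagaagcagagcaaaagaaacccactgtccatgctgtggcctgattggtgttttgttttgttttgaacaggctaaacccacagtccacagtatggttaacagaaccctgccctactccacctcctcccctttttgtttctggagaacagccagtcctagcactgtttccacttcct

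The 3 tables summed to between 978462 and 994059 TPM per library over the entries they list, and between 14537 and 16165 genes reached 1 TPM. Read depth is unknown because TPM keeps none, so the precision of each value rests on the spread between mice. The colonic carbonic anhydrase Car1 ran from 1819 to 5725 TPM in the colon and reached at most 15.1 TPM elsewhere. The ileal marker Fabp6 and the duodenal marker Tmprss15 went against the labels in 2 libraries of C57BL/6J mouse 2. Its library labelled ileum held 22.1 TPM of Fabp6, an ileal bile acid binding protein that ran from 3766 to 11144 TPM in the other ileum libraries, and 51.2 TPM of Tmprss15, the duodenal enteropeptidase. Its library labelled duodenum/jejunum held 6111 TPM of Fabp6 beside 39.2 TPM of Tmprss15. In the other duodenum/jejunum libraries Fabp6 reached at most 96.0 TPM, in BALB/cJ mouse 5. The gastric and Brunner gland gene Gkn3 ran from 1.54 to 716 TPM within that tissue. Counts of called members, and the members whose call changed, are given with and without C57BL/6J mouse 2. In bulk tissue, fewer cells of a type and less RNA per cell cannot be told apart.

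Of the 42 members, 24 reached a mean of 1 TPM in at least 1 group and 18 did not. Together the members made up 0.112% (C57BL/6J ileum) to 0.247% (BALB/cJ duodenum/jejunum) of the TPM of a group. The small intestine was led by Ugt2b34, a UDP-glucuronosyltransferase of the 2B subfamily, by Sult1b1, which sulfates thyroid hormones and phenols, and by Sult1d1, which sulfates catecholamines. In the colon Sult1a1, the main phenol sulfotransferase, stood beside them with 334 TPM as the mean of both strain means. Means by tissue given below weigh the strains equally in the same way. The sum over all members was 1436 ± 86.04 TPM (SD, n = 6) in the BALB/cJ colon and 1517 ± 195 TPM (SD, n = 7) in the C57BL/6J colon. In the ileum it was 1236 ± 272 TPM (SD, n = 6) in BALB/cJ and 1113 ± 454 TPM (SD, n = 7) in C57BL/6J, and in the duodenum/jejunum 2448 ± 414 TPM (SD, n = 6) and 1866 ± 338 TPM (SD, n = 7). The ranges of the 2 strains overlapped in each tissue.

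**Figure D1:**
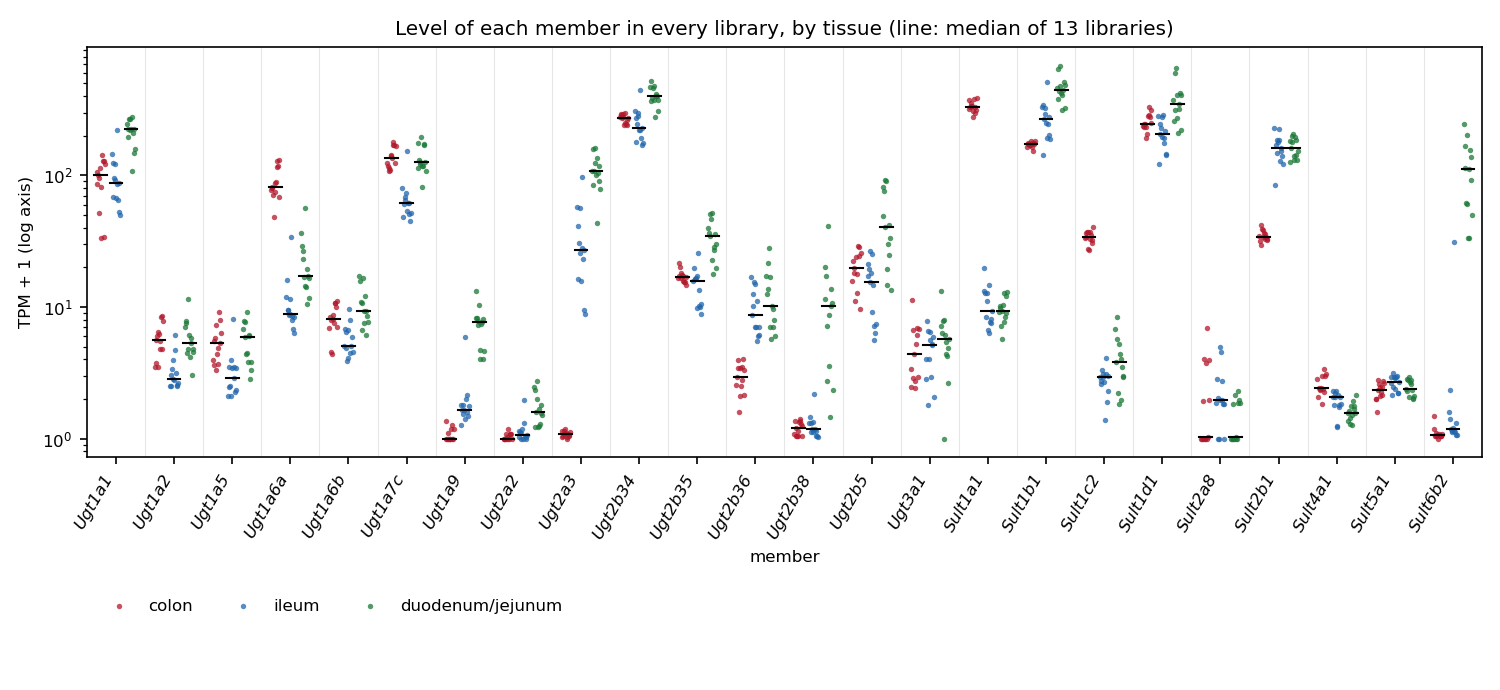
Levels of the 24 members with a group mean of at least 1 TPM, as TPM + 1 on a log axis, with 1 point per library in each tissue and a line at the median of the 13 libraries. Sult1a1 is far higher in the colon than elsewhere, Ugt2a3 and Sult2b1 are higher in the ileum and duodenum/jejunum than in the colon, and Sult6b2 and Ugt2b38 are high in the duodenum/jejunum.

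Within the families a few members carried most of the signal. Ugt2b34 made up 88.4% of the Ugt2 sum in the BALB/cJ colon and 87.3% in the C57BL/6J colon. Its share was 62.6% and 70.2% in the duodenum/jejunum, where Ugt2a3 held 17.1% and 17.8%. Of the Ugt1 sum, Ugt1a7c held 40.4% in the BALB/cJ colon and 43.1% in the C57BL/6J colon. Ugt1a1, the enzyme that conjugates bilirubin, held 53.7% and 53.96% in the duodenum/jejunum. Among the sulfotransferases Sult1a1 held 42.01% of the BALB/cJ and 38.5% of the C57BL/6J colon sum. In the duodenum/jejunum Sult1b1 held 40.3% and 42.4% of the Sult sum.

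The Ugt2 sum was 718 ± 121 TPM (SD, n = 6) in the BALB/cJ duodenum/jejunum and 522 ± 94.1 TPM (SD, n = 7) in that of C57BL/6J, with overlapping ranges. The corresponding Ugt1 sums were 443 ± 74.3 TPM (SD, n = 6) and 354 ± 83.5 TPM (SD, n = 7). In the colon the Ugt1 sum was 297 ± 46.8 TPM (SD, n = 6) in BALB/cJ and 371 ± 95.8 TPM (SD, n = 7) in C57BL/6J. Sums over Sult1 in the colon were 775 ± 37.7 TPM (SD, n = 6) and 808 ± 85.9 TPM (SD, n = 7). In the C57BL/6J ileum the Ugt1 sum was 178 TPM with and 136 TPM without mouse 2, and the Ugt2 sum 293 and 243 TPM. Sums over members received no test.

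**Figure D2:**
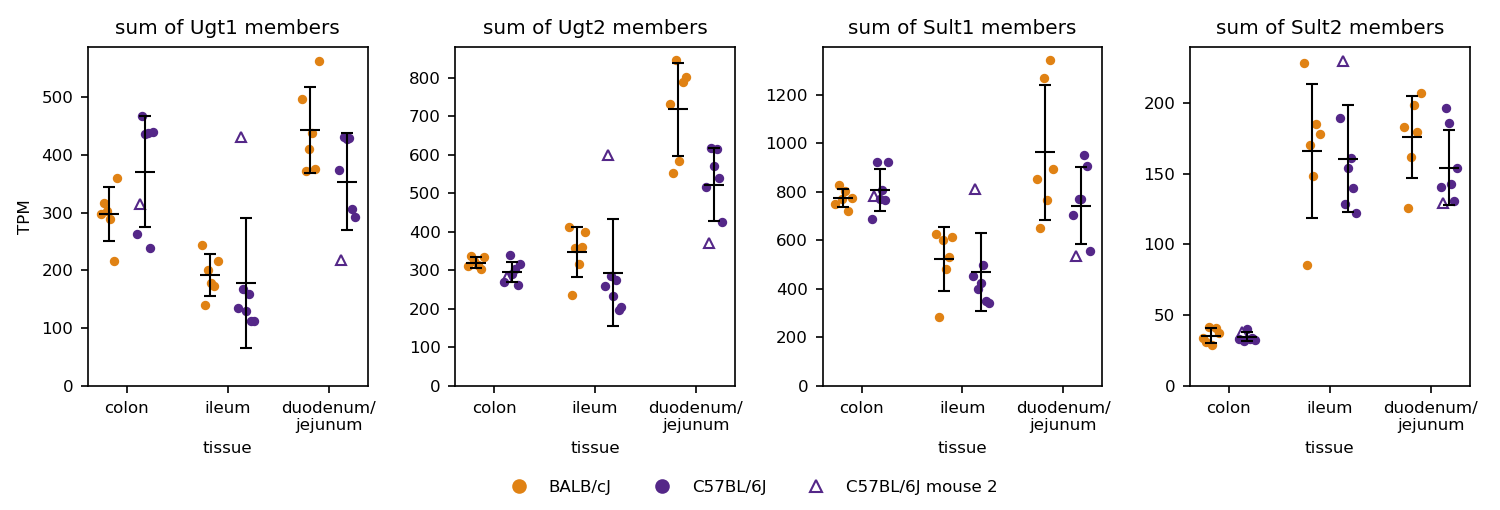
Summed TPM of the Ugt1, Ugt2, Sult1 and Sult2 members in each library by tissue and strain, with the mean and SD of each group. The open triangle is C57BL/6J mouse 2, which is the highest C57BL/6J ileum library in the Ugt1 (430.5 TPM), Ugt2 (599 TPM), Sult1 (812 TPM) and Sult2 (229 TPM) panels.

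The tissues were compared over both strains with equal weight, on the log2(TPM + 1) scale, by limma with Benjamini-Hochberg adjustment over 17126 genes, calling adjusted p under 0.05. On this scale the change of members near 1 TPM is understated. Of the 42 members, 23 reached 1 TPM or more in 6 or more of the 39 libraries and were tested. Between colon and ileum 10 were higher and 6 lower in the colon, beside 65.6% of all genes called, 46.5% higher and 19.1% lower. Between colon and duodenum/jejunum 4 were higher and 13 lower in the colon, beside 72.9% of all genes called, 55.4% higher and 17.5% lower. Between ileum and duodenum/jejunum 1 was higher and 16 lower in the ileum, beside 42% of all genes called, 32.1% higher and 9.81% lower. The median member differed by 0.16, -0.49 and -0.82 in these 3 comparisons, against 0.17, 0.28 and 0.12 for the median tested gene. Without C57BL/6J mouse 2 the count for colon against ileum was 12 higher and 6 lower, beside 65.2% of all genes called. Those of the other comparisons stayed at 17 each, beside 72.9% of all genes for colon and 47.1% for ileum against duodenum/jejunum. Scaling the libraries by median ratios removes that shift of the median gene. Members were then called 7 higher and 6 lower between colon and ileum, 4 and 15 between colon and duodenum/jejunum, and 0 and 17 between ileum and duodenum/jejunum. Beside these, 62.2%, 68.1% and 34.5% of all genes were called. Among all genes called, the share higher in the first tissue went from 70.8% to 50.7%, from 76% to 49.4% and from 76.6% to 48.4%. Sult6b2, Ugt2b38 and Ugt1a9 reached the low-value filter mainly through the duodenum/jejunum, where they were high, so their differences follow in part from that choice.

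Sult1a1 was a colonic member with little signal in the small intestine. In the colon Sult1a1 ran from 320.1 to 376 TPM (median 337) in BALB/cJ and from 276 to 386 TPM (median 311) in C57BL/6J. In the ileum Sult1a1 ran from 7.44 to 18.6 TPM (median 11.8) in BALB/cJ and from 5.32 to 13.7 TPM (median 6.65) in C57BL/6J. Sult1a1 of the duodenum/jejunum ran from 4.71 to 9.26 TPM (median 8.29) in BALB/cJ and from 6.66 to 11.97 TPM (median 9.34) in C57BL/6J. Every colon library lay above every library of the other tissues. The colon exceeded the ileum by 5.03 ± 0.12 (SE), adjusted p = 3.6e-30, and the duodenum/jejunum by 5.17 ± 0.12 (SE), adjusted p = 1.4e-30, on the log2 scale. Ileum and duodenum/jejunum differed by 0.14 ± 0.12 (SE), adjusted p = 0.37.

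Sult1c2, a further phenol sulfotransferase, was also highest in the colon, at a lower level. It ran from 26.4 to 36.2 TPM (median 34.05) in BALB/cJ and from 25.9 to 39.2 TPM (median 31.9) in C57BL/6J in the colon. Its mean of both strain means was 1.79 TPM in the ileum and 3.22 TPM in the duodenum/jejunum, and the colon did not overlap with either. The log2 difference of colon against ileum was 3.64 ± 0.16 (SE), adjusted p = 1.8e-21. The ileum was lower than the duodenum/jejunum (-0.49 ± 0.16 (SE), adjusted p = 0.012). Sult4a1, a sulfotransferase known from brain, was the third Sult higher in the colon at much lower levels, 1.56, 0.921 and 0.597 TPM in colon, ileum and duodenum/jejunum. Its differences were 0.42 ± 0.10 (SE), adjusted p = 0.00026 against the ileum and 0.67 ± 0.10 (SE), adjusted p = 9.3e-08 against the duodenum/jejunum. It was also the member called higher in the ileum than in the duodenum/jejunum (0.26 ± 0.10 (SE), adjusted p = 0.03), a call lost with median-ratio scaling (0.20, adjusted p = 0.087).

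Sult1b1 rose toward the proximal end. In the colon Sult1b1 ran from 163 to 175 TPM (median 171) in BALB/cJ and from 153 to 181 TPM (median 174) in C57BL/6J. In the ileum Sult1b1 ran from 142 to 344 TPM (median 309) in BALB/cJ and from 187 to 516 TPM (median 243) in C57BL/6J. Sult1b1 of the duodenum/jejunum ran from 379 to 682 TPM (median 472) in BALB/cJ and from 315 to 514 TPM (median 423) in C57BL/6J, above every colon library. The log2 difference was -1.41 ± 0.13 (SE), adjusted p = 2.3e-12 for colon against duodenum/jejunum, and -0.80 ± 0.13 (SE), adjusted p = 5.7e-06 for ileum against duodenum/jejunum. Sult1d1, its neighbour on chromosome 5, was present throughout, from 190.0 to 245 TPM (median 234) in BALB/cJ and from 205 to 329 TPM (median 282) in C57BL/6J in the colon. In the ileum Sult1d1 ran from 120.3 to 282 TPM (median 236) in BALB/cJ and from 142 to 289 TPM (median 191) in C57BL/6J, and in the duodenum/jejunum from 258 to 651 TPM (median 390.2) in BALB/cJ and from 209 to 425 TPM (median 317) in C57BL/6J. The tissues overlapped for Sult1d1, which was lower in the ileum than in the duodenum/jejunum (-0.80 ± 0.14 (SE), adjusted p = 2.1e-05). Its difference between colon and ileum passed the test without C57BL/6J mouse 2 (0.36, adjusted p = 0.024, against adjusted p = 0.053 with it).

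Sult2b1, which sulfates cholesterol and pregnenolone, separated the colon from the small intestine in the other direction to Sult1a1. In the colon Sult2b1 ran from 28.6 to 40.8 TPM (median 35.7) in BALB/cJ and from 31.1 to 35.4 TPM (median 33.2) in C57BL/6J. In the ileum Sult2b1 ran from 83.7 to 228 TPM (median 174) in BALB/cJ and from 121 to 226 TPM (median 152) in C57BL/6J. Sult2b1 of the duodenum/jejunum ran from 126 to 206 TPM (median 181) in BALB/cJ and from 129 to 196 TPM (median 142) in C57BL/6J. All colon libraries lay below all small intestinal ones, and the log2 difference of colon against ileum was -2.18 ± 0.11 (SE), adjusted p = 1e-19. Ileum and duodenum/jejunum were not separated (-0.05 ± 0.11 (SE), adjusted p = 0.76). Sult6b2, a member with no function assigned here, had nearly all of its signal in the duodenum/jejunum, where it ran from 59.7 to 247 TPM (median 139.9) in BALB/cJ and from 32.3 to 154 TPM (median 91.7) in C57BL/6J. Its median was 0.0815 TPM in the BALB/cJ colon and 0.288 TPM in the BALB/cJ ileum. In the C57BL/6J ileum 1 library, that of mouse 2, held 30.04 TPM against a group median of 0.133 TPM. Sult5a1 stayed between 1.31 and 1.66 TPM by tissue mean, and Sult2a8 reached 1.23, 1.24 and 0.453 TPM with libraries at 0 in every group.

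Among the glucuronosyltransferases Ugt1a1 was highest in the duodenum/jejunum. In the colon Ugt1a1 ran from 50.5 to 113 TPM (median 97.2) in BALB/cJ and from 32.3 to 141 TPM (median 120.2) in C57BL/6J. In the ileum Ugt1a1 ran from 67.02 to 146 TPM (median 108) in BALB/cJ and from 48.96 to 219 TPM (median 65.8) in C57BL/6J. Ugt1a1 of the duodenum/jejunum ran from 194 to 266 TPM (median 235) in BALB/cJ and from 108 to 276 TPM (median 211) in C57BL/6J. The duodenum/jejunum exceeded both other tissues, with log2 differences of -1.28 ± 0.22 (SE), adjusted p = 2.9e-06 for colon and -1.20 ± 0.22 (SE), adjusted p = 4.2e-05 for ileum against it. The overlap of single libraries came from C57BL/6J mouse 2, with 108 TPM in its duodenum/jejunum and 219 TPM in its ileum library. Without that mouse the lowest duodenum/jejunum library held 148 TPM, and ileum and colon reached at most 146 and 141 TPM. The low colon values came from 3 libraries: 50.5 TPM in BALB/cJ mouse 5, 32.3 in C57BL/6J mouse 1 and 32.9 in C57BL/6J mouse 6. The same 3 libraries held the lowest Car1 of the colon, at 1819, 2513 and 2269 TPM, and the lowest Ugt2b5 in the colon, at 10.02, 11.8 and 8.68 TPM. The part of the sampled colon position in these values was not tested.

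Ugt1a6a, which conjugates small planar phenols, was a colonic member. In the colon Ugt1a6a ran from 47.7 to 86.8 TPM (median 77.5) in BALB/cJ and from 67.4 to 129.7 TPM (median 115) in C57BL/6J. In the ileum Ugt1a6a ran from 7.72 to 15.01 TPM (median 9.56) in BALB/cJ and from 5.39 to 33.003 TPM (median 7.32) in C57BL/6J. Ugt1a6a of the duodenum/jejunum ran from 15.96 to 55.9 TPM (median 26.8) in BALB/cJ and from 9.60 to 18.3 TPM (median 13.4) in C57BL/6J. Colon and ileum did not overlap, with a difference of 3.06 ± 0.19 (SE), adjusted p = 7.6e-17. Its copy Ugt1a6b had means of 7.07, 4.80 and 9.78 TPM in colon, ileum and duodenum/jejunum. Summed, the pair had means of 79.2 TPM in the BALB/cJ and 111 TPM in the C57BL/6J colon.

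Ugt1a7c was high at both ends of the gut and lower in the ileum. In the colon Ugt1a7c ran from 107 to 140.0 TPM (median 115) in BALB/cJ and from 124 to 179.9 TPM (median 167) in C57BL/6J. In the ileum Ugt1a7c ran from 47.3 to 79.4 TPM (median 65.8) in BALB/cJ and from 44.3 to 152 TPM (median 53.1) in C57BL/6J. Ugt1a7c of the duodenum/jejunum ran from 113 to 195 TPM (median 128) in BALB/cJ and from 80.4 to 173 TPM (median 117) in C57BL/6J. The ileum was lower than the colon (colon against ileum 1.08 ± 0.13 (SE), adjusted p = 6.7e-09) and than the duodenum/jejunum (ileum against duodenum/jejunum -1.05 ± 0.13 (SE), adjusted p = 1.1e-07). Colon against duodenum/jejunum gave 0.03 ± 0.13 (SE), adjusted p = 0.85, and -0.32, adjusted p = 0.059 with median-ratio scaling, which turns its sign without a call. Ugt1a5 had tissue means of 4.43, 2.24 and 4.65 TPM and Ugt1a2 of 4.70, 2.26 and 5.01 TPM, both lower in the ileum than in either other tissue by the test. Ugt1a9 was nearly limited to the duodenum/jejunum, from 6.30 to 12.1 TPM (median 7.25) in BALB/cJ and from 3.00 to 7.16 TPM (median 3.67) in C57BL/6J, against a tissue mean of 0.975 TPM in the ileum and 0.0824 TPM in the colon, where 8 of 13 libraries were at 0.

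Ugt2b34 was the highest glucuronosyltransferase in every tissue. In the colon Ugt2b34 ran from 274 to 294 TPM (median 282) in BALB/cJ and from 239 to 295 TPM (median 248) in C57BL/6J. In the ileum Ugt2b34 ran from 177 to 305 TPM (median 277) in BALB/cJ and from 170.1 to 444 TPM (median 222) in C57BL/6J. Ugt2b34 of the duodenum/jejunum ran from 364 to 522 TPM (median 465) in BALB/cJ and from 279 to 418 TPM (median 372) in C57BL/6J. Ileum against duodenum/jejunum gave -0.73 ± 0.10 (SE), adjusted p = 4.7e-07, while colon and ileum were not separated (0.16 ± 0.10 (SE), adjusted p = 0.16) unless C57BL/6J mouse 2 was left out (0.25, adjusted p = 0.0035). Ugt2a3 was close to 0 in the colon, with a highest library of 0.181 TPM. In the ileum Ugt2a3 ran from 15.2 to 56.4 TPM (median 34.8) in BALB/cJ and from 7.87 to 96.9 TPM (median 22.3) in C57BL/6J, and in the duodenum/jejunum from 83.9 to 159 TPM (median 116) in BALB/cJ and from 42.5 to 135 TPM (median 100.3) in C57BL/6J. Colon and small intestine did not overlap (-6.60 ± 0.24 (SE), adjusted p = 3.4e-24 against the duodenum/jejunum).

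The Ugt2b members of the chromosome 5 neighbourhood conjugate steroids, bile acids and drugs. Ugt2b5 ran from 10.02 to 23.1 TPM (median 17.9) in BALB/cJ and from 8.68 to 28.04 TPM (median 23.3) in C57BL/6J in the colon. In the ileum Ugt2b5 ran from 14.5 to 25.5 TPM (median 17.9) in BALB/cJ and from 4.57 to 24.1 TPM (median 6.43) in C57BL/6J. Ugt2b5 of the duodenum/jejunum ran from 39.2 to 91.5 TPM (median 78.3) in BALB/cJ and from 12.6 to 41.2 TPM (median 23.9) in C57BL/6J. Ugt2b35 followed the same order, with tissue means of 16.3, 13.8 and 33.6 TPM in colon, ileum and duodenum/jejunum. Both were lower in the ileum than in the duodenum/jejunum (Ugt2b5 -1.58 ± 0.21 (SE), adjusted p = 3.4e-07, Ugt2b35 -1.22 ± 0.12 (SE), adjusted p = 3.2e-10). Their differences between colon and ileum passed the test (adjusted p = 0.048 and 0.031) but not with median-ratio scaling (adjusted p = 0.29 and 0.56) or with the mouse as a replicate block (adjusted p = 0.051 and 0.055). Ugt2b36 instead separated the colon from the rest: its colon mean was 1.95 TPM against 9.14 TPM in the ileum and 11.9 TPM in the duodenum/jejunum, with no overlap between the colon and either. Ugt2b38 had a mean of 10.9 TPM in the duodenum/jejunum and of 0.269 and 0.197 TPM in ileum and colon. Ugt2a2, of the subfamily known from the olfactory epithelium, exceeded 1 TPM only in the BALB/cJ duodenum/jejunum by group mean (1.06 ± 0.578 TPM (SD, n = 6)). Ugt3a1, whose subfamily uses other UDP sugars, did not separate the tissues, with means of 3.96, 3.64 and 5.03 TPM.

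The strains were compared within each tissue over its 13 libraries, with positive log2 differences where BALB/cJ was higher. In the colon Ugt1a7c was the only one of the 18 members tested that was called, and it was lower in BALB/cJ. Across all 15769 genes tested 25.3% were called, 14.5% higher and 10.8% lower in BALB/cJ. Ugt1a7c was at 118 ± 12.2 TPM (SD, n = 6) in BALB/cJ and 155 ± 21.4 TPM (SD, n = 7) in C57BL/6J, and the strains overlapped between 124 and 140.0 TPM. The log2 difference was -0.38 ± 0.09 (SE), adjusted p = 0.0075. Members with unadjusted p under 0.05 numbered 7, the other 6 being Ugt1a6a (-0.46 ± 0.18 (SE), adjusted p = 0.072), Ugt1a6b (-0.48 ± 0.18 (SE), adjusted p = 0.073), Ugt1a2 (-0.46 ± 0.20 (SE), adjusted p = 0.11) and Sult1d1 (-0.26 ± 0.10 (SE), adjusted p = 0.063), which leaned the same way, and Ugt2b34 (0.14 ± 0.05 (SE), adjusted p = 0.054) and Ugt2b35 (0.17 ± 0.07 (SE), adjusted p = 0.099), which leaned the other way. None of the 7 Sult members tested was called by limma, and 1 had an unadjusted p under 0.05. For such counts, here and below, the share of all genes at unadjusted p under 0.05 was not counted. That share is at least the share called, 25.3% in the colon, so these counts are description only. The abundant Sult1a1 gave 0.07 ± 0.08 (SE), adjusted p = 0.52, Sult1b1 -0.01 ± 0.04 (SE), adjusted p = 0.95 and Sult2b1 0.07 ± 0.08 (SE), adjusted p = 0.55.

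Markers of other cells moved with strain in the colon. All 9 of the B cell markers found, of 10 listed, were called higher in BALB/cJ, and none was at 0 in a colon library. Their sum ran from 55.7 to 88.6 TPM in BALB/cJ and from 18.7 to 33.99 TPM in C57BL/6J. All 5 adipocyte markers tested, 5 of 7 T cell, 5 of 8 macrophage and 5 of 8 fibroblast and endothelial markers were also higher. Called lower in BALB/cJ were 3 of 12 epithelial, 3 of 8 smooth muscle and 3 of 8 enteric neuron and glia markers. The sums of the epithelial markers ran from 12306 to 13565 TPM in BALB/cJ and from 13191 to 13769.6 TPM in C57BL/6J. With the mean epithelial marker level as a covariate Ugt1a7c gave -0.25, adjusted p = 0.56, and with that of the B cell markers 0.07, adjusted p = 0.96, so the call was lost and in the second fit the sign turned. The B cell sums separate the strains themselves, whereas the epithelial sums overlapped. The mean epithelial level on the log2 scale was 9.42 ± 0.04 (SD, n = 6) in BALB/cJ and 9.52 ± 0.02 (SD, n = 7) in C57BL/6J. With either covariate the strain and the marker level cannot be told apart. Leaving out the 4 colon libraries under 3000 TPM of Car1, a choice made after seeing the data, gave 3 of 18 members called, beside 15.8% of all genes: Ugt1a7c (-0.40, adjusted p = 0.016), Ugt1a6a (-0.50, adjusted p = 0.011) and Sult1d1 (-0.33, adjusted p = 0.0052), each lower in BALB/cJ.

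In the ileum 2 of 19 members tested were called, Ugt2b36 and Ugt2b5, both higher in BALB/cJ. Across 15537 genes 20.4% were called, 17.2% higher and 3.17% lower in BALB/cJ. Ugt2b36 was at 12.1 ± 3.19 TPM (SD, n = 6) in BALB/cJ and 6.15 ± 1.87 TPM (SD, n = 7) in C57BL/6J, a difference of 0.87 ± 0.18 (SE), adjusted p = 0.0051. Its ranges, from 7.74 to 15.9 TPM (median 12.7) and from 4.54 to 10.2 TPM (median 6.03), overlapped through C57BL/6J mouse 3, the highest of that group. Ugt2b5 was at 18.7 ± 3.91 TPM (SD, n = 6) and 9.78 ± 6.99 TPM (SD, n = 7), a difference of 1.05 ± 0.30 (SE), adjusted p = 0.027, and overlapped through C57BL/6J mouse 2. Median-ratio scaling, which takes out the shift of 0.17 in the median gene, left Ugt2b36 called and not Ugt2b5 (0.88, adjusted p = 0.088). With that scaling the share of called genes that were higher in BALB/cJ went from 84.5% to 51.6%.

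Without C57BL/6J mouse 2, whose ileum library carried duodenal markers, 5 of 19 members were called, beside 23.5% of all genes. Ugt2b35 then gave 0.70, adjusted p = 0.00029, Ugt1a1 0.66, adjusted p = 0.024 and Ugt1a6a 0.49, adjusted p = 0.028, in addition to Ugt2b36 (0.87, adjusted p = 0.0063) and Ugt2b5 (1.29, adjusted p = 0.00071). Ugt2b35 ran from 14.8 to 18.7 TPM (median 15.5) in BALB/cJ and from 7.82 to 12.6 TPM (median 9.06) in the remaining 6 C57BL/6J libraries, which did not overlap, while mouse 2 held 24.5 TPM. With median-ratio scaling as well, 3 were left, Ugt2b36, Ugt2b5 and Ugt2b35, beside 14.6% of all genes. Ugt1a1 ran from 48.96 to 85.8 TPM (median 64.6) in those 6 libraries and was at 219 TPM in mouse 2. Markers of macrophages (4 of 8), fibroblasts and endothelium (6 of 8), B cells (3 of 9), T cells (2 of 8) and adipocytes (1 of 5) were called higher in the BALB/cJ ileum, and none of 12 epithelial markers was called. Epithelial marker sums ran from 10312 to 15112 TPM in BALB/cJ and 11501 to 16012 TPM in C57BL/6J. With the epithelial markers as covariate 4 members were called (Ugt2b36, Ugt2b5, Ugt2b35 and Sult1a1), all higher, beside 21.4% of all genes called, of which 84.6% were higher. No Sult member of 7 tested was called by limma with all libraries, and 2 had unadjusted p under 0.05, Sult1a1 (0.60 ± 0.21 (SE), adjusted p = 0.056) and Sult4a1 (0.33 ± 0.15 (SE), adjusted p = 0.12).

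The duodenum/jejunum had the most called members, 6 of 21 tested, all of them Ugt and all higher in BALB/cJ. Across 15306 genes 9.5% were called, 4.7% higher and 4.8% lower in BALB/cJ. The median member tested lay at 0.54 and the median tested gene at 0.01 on the log2 scale. Ugt2b36 was at 17.3 ± 5.64 TPM (SD, n = 6) in BALB/cJ and 6.62 ± 1.71 TPM (SD, n = 7) in C57BL/6J. It ran from 11.6 to 26.9 TPM (median 16.1) in BALB/cJ and from 4.68 to 9.15 TPM (median 6.02) in C57BL/6J, and the strains did not overlap. The difference was 1.24 ± 0.19 (SE), adjusted p = 0.00043. Ugt2b5 was at 70.9 ± 22.2 TPM (SD, n = 6) and 24.5 ± 10.4 TPM (SD, n = 7), a ratio of means of 2.90 and a log2 difference of 1.54 ± 0.28 (SE), adjusted p = 0.0018. The strains overlapped between 39.2 and 41.2 TPM. Ugt2b35 was at 42.2 ± 7.42 TPM (SD, n = 6) and 24.9 ± 6.29 TPM (SD, n = 7), a difference of 0.76 ± 0.16 (SE), adjusted p = 0.0067, with overlap between 33.6 and 34.7 TPM. The sum of Ugt2b5 with its near copies Ugt2b37 and Ugt2b38 ran from 45.4 to 131 TPM (median 92.4) in BALB/cJ and from 13.9 to 54.03 TPM (median 29.5) in C57BL/6J. Ugt2b38 alone was at 15.6 ± 13.6 TPM (SD, n = 6) and 6.26 ± 4.77 TPM (SD, n = 7). Its difference of 1.13 ± 0.63 (SE), adjusted p = 0.34, was not called by limma.

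The other 3 called members belong to Ugt1a. Ugt1a6a was at 30.5 ± 14.01 TPM (SD, n = 6) in BALB/cJ and 13.9 ± 3.08 TPM (SD, n = 7) in C57BL/6J, a difference of 1.00 ± 0.23 (SE), adjusted p = 0.011, and the strains overlapped between 15.96 and 18.3 TPM. Ugt1a5 was at 5.97 ± 1.67 TPM (SD, n = 6) and 3.34 ± 1.28 TPM (SD, n = 7) (0.70 ± 0.21 (SE), adjusted p = 0.046), and Ugt1a9 at 8.17 ± 2.19 TPM (SD, n = 6) and 4.80 ± 1.85 TPM (SD, n = 7) (0.69 ± 0.21 (SE), adjusted p = 0.048). Both stood close to the threshold and lost the call without C57BL/6J mouse 2, Ugt1a5 at adjusted p = 0.078 and Ugt1a9 at adjusted p = 0.085. The major Ugt1a forms were not called: Ugt1a1 gave 0.34 ± 0.18 (SE), adjusted p = 0.32 and Ugt1a7c 0.18 ± 0.18 (SE), adjusted p = 0.64. Because the Ugt1a members share their last exons, reads from those exons do not separate them.

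No Sult member of the 7 tested in the duodenum/jejunum was called by limma, and 1, Sult1c2 (0.75 ± 0.29 (SE), adjusted p = 0.14), had an unadjusted p under 0.05. Sult1b1 gave 0.29 ± 0.16 (SE), adjusted p = 0.31, Sult1d1 0.44 ± 0.23 (SE), adjusted p = 0.3, Sult2b1 0.19 ± 0.13 (SE), adjusted p = 0.47 and Sult6b2 0.73 ± 0.44 (SE), adjusted p = 0.39. With the epithelial marker level as a covariate 2 calls were left, beside 6.46% of all genes, Ugt2b36 (1.13, adjusted p = 0.0063) and Ugt2b5 (1.25, adjusted p = 0.025). Ugt2b35 then gave 0.59, adjusted p = 0.07 and Ugt1a6a 0.93, adjusted p = 0.07. None of the 12 epithelial markers was called between strains here, and their sums ran from 8679.9 to 10459.6 TPM in BALB/cJ and 9097 to 11906 TPM in C57BL/6J. Of the markers of other cells, 0 of 9 B cell, 0 of 8 macrophage and 0 of 8 smooth muscle markers were called by limma, with 1, 2 and 3 of them at unadjusted p under 0.05. Called lower in BALB/cJ were 1 of 7 T cell, 1 of 5 enteric neuron and glia and 1 of 3 liver markers. The part of cell makeup in the 6 calls was not tested.

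**Figure D3:**
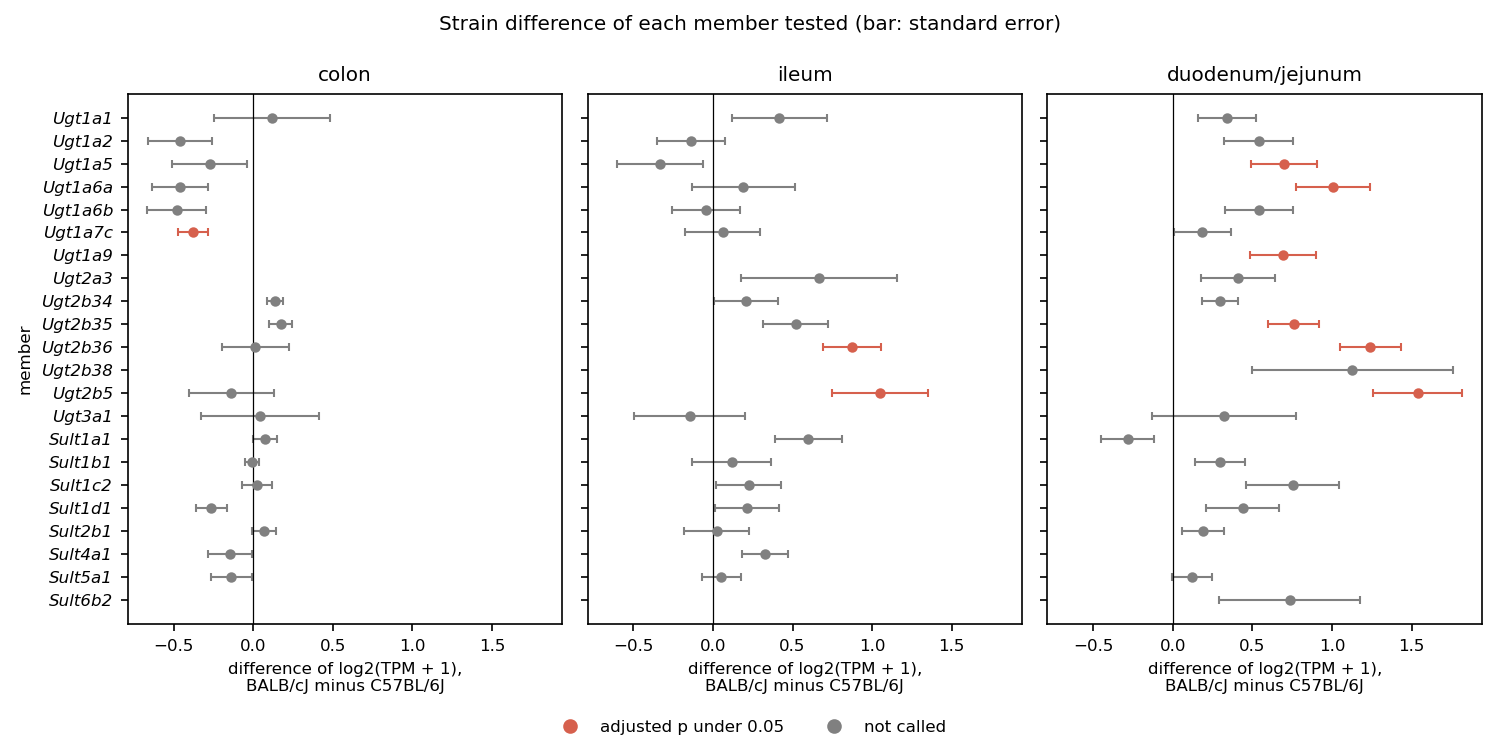
Log2 differences between BALB/cJ and C57BL/6J with standard errors for the tested members in each tissue, positive where BALB/cJ was higher and red where called at adjusted p under 0.05. The called members are Ugt1a7c in the colon (-0.38), Ugt2b36 and Ugt2b5 in the ileum, and 6 Ugt members in the duodenum/jejunum from 0.69 (Ugt1a9) to 1.54 (Ugt2b5).

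**Figure D4:**
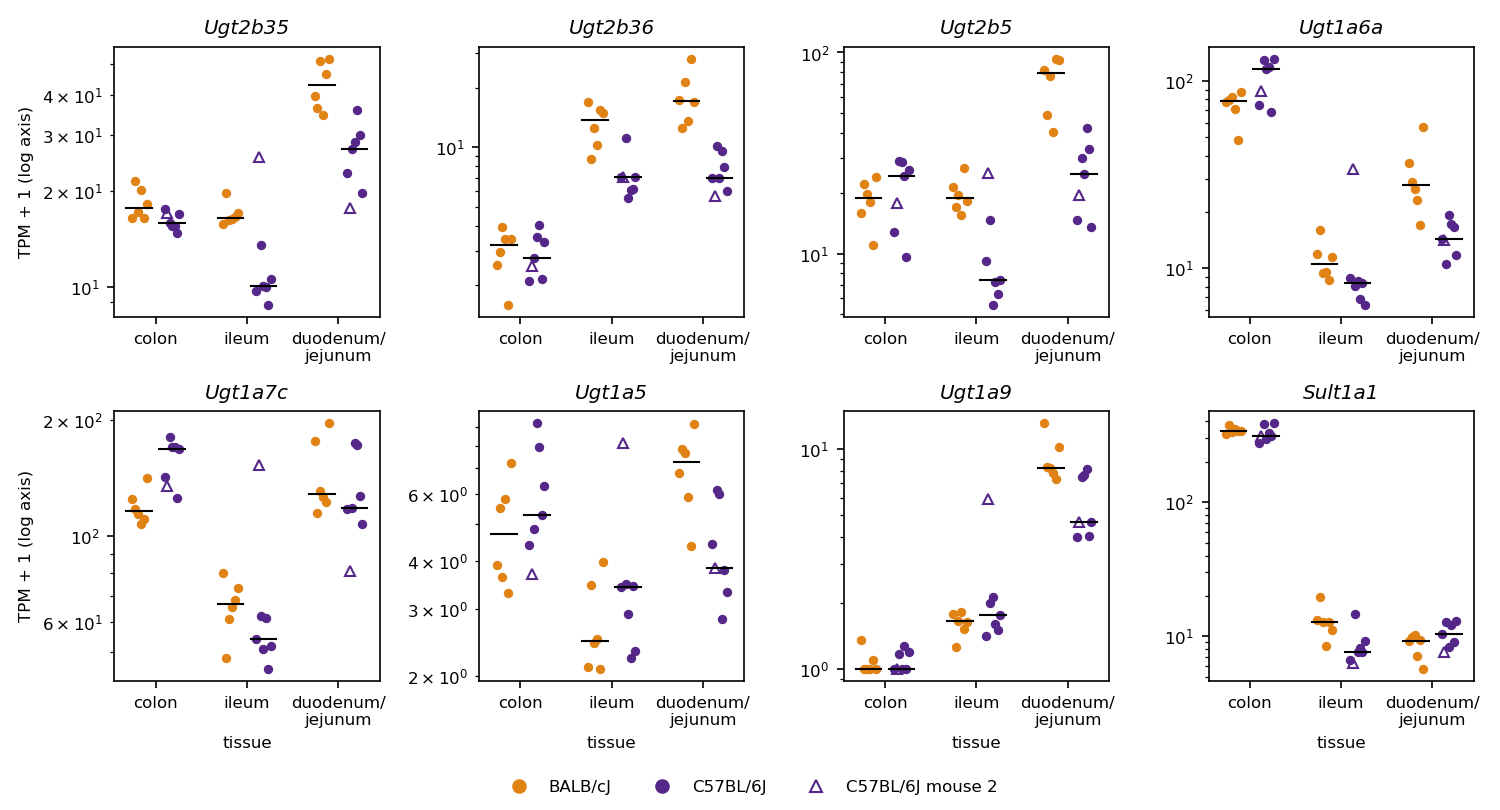
TPM of 8 members in each library by tissue and strain, with a line at the group median and an open triangle for C57BL/6J mouse 2. In the duodenum/jejunum the Ugt2b36 points of BALB/cJ (11.6 to 26.9 TPM) lie above all of C57BL/6J (4.68 to 9.15 TPM), and in the ileum the triangle lies above the other C57BL/6J points for Ugt2b35, Ugt2b5, Ugt1a6a, Ugt1a7c, Ugt1a5 and Ugt1a9.

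Whether the strain difference itself varied between tissues was tested by a moderated F test over all 39 libraries. Of 23 members tested 4 were called, beside 9.21% of 17126 genes. For Ugt2b36 (adjusted p = 0.013) the strain difference was 0.01 for colon, 0.87 for ileum and 1.24 for duodenum/jejunum. For Ugt2b5 (adjusted p = 0.024) it was -0.14, 1.05 and 1.54. Both members were called higher in BALB/cJ in the ileum and the duodenum/jejunum and were not called in the colon. For Ugt1a6a (adjusted p = 0.03) the difference went from -0.46 in the colon through 0.19 to 1.00 in the duodenum/jejunum. Sult1a1 (adjusted p = 0.035) had 0.07, 0.60 and -0.28, without a call in any tissue, and its interaction was lost with median-ratio scaling (adjusted p = 0.11) and without the low-value filter (adjusted p = 0.053). Without C57BL/6J mouse 2 the test called 7 members, beside 10.7% of all genes, adding Ugt1a7c (adjusted p = 0.035), Ugt1a9 (adjusted p = 0.042) and Ugt2b35 (adjusted p = 0.048). With that mouse Ugt1a7c had adjusted p = 0.28. With the mouse as a replicate block 6 were called, beside 11.2% of all genes, adding Ugt1a6b (adjusted p = 0.017) and Ugt1a9 (adjusted p = 0.045).

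Within the duodenum/jejunum some members divided with the duodenal marker Tmprss15. It was under 30 TPM in 5 libraries, 2 of BALB/cJ and 3 of C57BL/6J, and from 39.2 to 68.8 TPM in the other 8, 4 of each strain. Sult6b2 ran from 32.3 to 60.8 TPM (median 49.3) in those 5 and from 91.7 to 247 TPM (median 146) in the 8, without overlap. Ugt2b38 ran from 0.463 to 6.13 TPM (median 1.72) and from 7.67 to 40.2 TPM (median 11.6), again without overlap. Ugt2b5 did not divide this way, from 12.6 to 91.5 TPM (median 29.03) against from 18.5 to 90.5 TPM (median 44.5), nor did Ugt2b36, from 4.97 to 26.9 TPM (median 9.15) against from 4.68 to 20.5 TPM (median 10.1). Ugt1a6a ran from 9.60 to 22.1 TPM (median 13.4) against from 13.2 to 55.9 TPM (median 21.9). Among the 8 is the library of C57BL/6J mouse 2, which held 6111 TPM of Fabp6 and, at 7.67 TPM, the lowest Ugt2b38 of the 8. The cut at 30 TPM was set after the values were seen, so these ranges are a description without a test. Only the members named here were examined. The share of all genes that divide this way was not counted, so the division is not shown to be particular to Sult6b2 and Ugt2b38. Gkn3 did not divide with Tmprss15. It ran from 1.54 to 716 TPM in the 5 libraries under 30 TPM of Tmprss15 and from 268 to 574 TPM in the other 8. Leaving out the 3 libraries under 100 TPM of Gkn3, all among those 5, gave 7 called members between strains, beside 7.79% of all genes. Ugt2b36 (1.18, adjusted p = 0.0017), Ugt2b5 (1.39, adjusted p = 0.017), Ugt2b35 and Ugt1a6a were among them, Ugt1a6b and Ugt3a1 were added, and Ugt1a9 was lost.

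**Figure D5:**
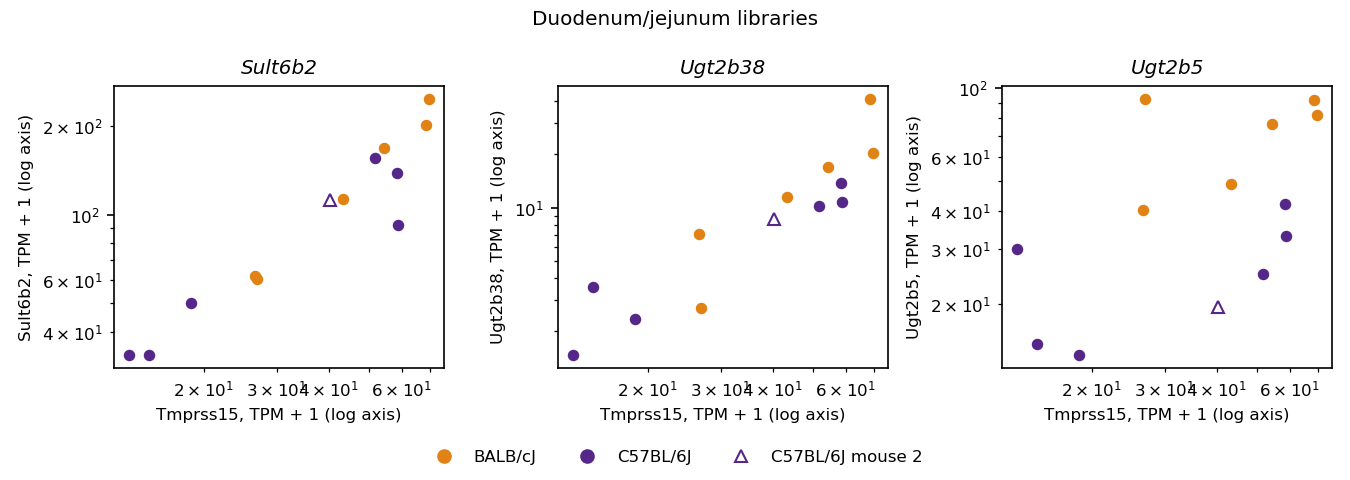
TPM of Sult6b2, Ugt2b38 and Ugt2b5 against TPM of Tmprss15 in the 13 duodenum/jejunum libraries, with 1 point per library and colour for strain. Sult6b2 is at most 60.8 TPM in the 5 libraries under 30 TPM of Tmprss15 and at least 91.7 TPM in the other 8, while Ugt2b5 spans 12.6 to 91.5 TPM and 18.5 to 90.5 TPM.

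Genes that supply, undo or regulate conjugation were counted from lists. The shares of all genes called higher and lower, against which these counts stand, were 14.5% and 10.8% in the colon, 17.2% and 3.17% in the ileum, and 4.7% and 4.8% in the duodenum/jejunum. Of 8 genes listed for the supply of UDP-glucuronic acid, 3 were called higher in BALB/cJ in the duodenum/jejunum and 2 in the ileum, with 0 lower. In the colon 1 of the 8 was higher and 2 were lower. These are transcript levels, and the supply itself was not measured. Ugp2, which makes UDP-glucose, was called in every tissue: 223 against 172 TPM, log2 difference 0.37, adjusted p = 2.6e-05 in the colon, 135 against 88.9 TPM, log2 difference 0.58, adjusted p = 0.0015 in the ileum, and 127 against 89.99 TPM, log2 difference 0.48, adjusted p = 0.02 in the duodenum/jejunum. Slc35d2, a nucleotide sugar transporter, was higher in the BALB/cJ duodenum/jejunum (23.7 against 14.2 TPM, log2 difference 0.74, adjusted p = 0.011). Pgm2 was higher in the BALB/cJ ileum (27.6 against 20.5 TPM, log2 difference 0.43, adjusted p = 0.037), and the hexokinase Hk2 was lower in the BALB/cJ colon (71.2 against 90.5 TPM, log2 difference -0.35, adjusted p = 0.0082).

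Of the genes for PAPS and sulfate supply, 10 of 12 were tested in each tissue. In the colon 2 were higher and 2 lower in BALB/cJ, in the ileum 2 higher and 0 lower, and in the duodenum/jejunum 1 higher and 1 lower. The sodium-sulfate cotransporter Slc13a1 was higher in BALB/cJ in the ileum (283 against 135 TPM, log2 difference 1.18, adjusted p = 0.0095) and the duodenum/jejunum (145 against 74.99 TPM, log2 difference 1.10, adjusted p = 0.049). The sulfate transporter Slc26a2 was lower in the BALB/cJ duodenum/jejunum (54.4 against 105 TPM, log2 difference -0.93, adjusted p = 0.00057), and the Golgi PAPS transporter Slc35b2 was higher in the BALB/cJ ileum (21.7 against 16.2 TPM, log2 difference 0.41, adjusted p = 0.0057). In the colon Bpnt1, a phosphatase that clears the product of PAPS, was lower (97.5 against 132 TPM, log2 difference -0.43, adjusted p = 3.6e-05), as was the PAPS synthase Papss1 (92.5 against 102 TPM, log2 difference -0.15, adjusted p = 0.02).

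Of the deconjugating enzymes 1 was called in the ileum, where it was higher, and 1 in the duodenum/jejunum, where it was lower. The beta-glucuronidase Gusb was lower in BALB/cJ in the colon (25.2 against 29.9 TPM, log2 difference -0.24, adjusted p = 0.0085) and in the duodenum/jejunum (15.9 against 21.6 TPM, log2 difference -0.43, adjusted p = 0.013), and the arylsulfatase Arsa was higher in the ileum (14.02 against 10.7 TPM, log2 difference 0.36, adjusted p = 0.015). Of a list of efflux and uptake transporters, not all of which carry conjugates, 1 of 12 was lower in the colon, Abcc1 (16.7 against 23.4 TPM, log2 difference -0.46, adjusted p = 0.00018). In the ileum 1 of 13 was higher, Abcb1a (145 against 85.2 TPM, log2 difference 0.75, adjusted p = 0.042), and in the duodenum/jejunum 1 of 13 was higher, Abcc6 (22.6 against 9.49 TPM, log2 difference 1.26, adjusted p = 0.014). Of 14 receptors that sense foreign compounds and lipids, limma called 0 in the colon, with 2 at unadjusted p under 0.05. It called 1 in the ileum, the aryl hydrocarbon receptor Ahr (12.6 against 9.03 TPM, log2 difference 0.42, adjusted p = 0.045), and 1 in the duodenum/jejunum, Nfe2l2, which encodes Nrf2 (224 against 141 TPM, log2 difference 0.67, adjusted p = 0.00033).

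Enzymes known as targets of Ahr, PXR and Nrf2 were called for 3 higher and 6 lower of 15 in the colon, 3 and 3 of 19 in the ileum, and 1 and 4 of 20 in the duodenum/jejunum. The glutathione transferase Gsta1, which has a near copy in Gsta2 so that its reads may be split, was lower in BALB/cJ in the colon (5.15 against 23.7 TPM, log2 difference -1.99, adjusted p = 4.5e-06), the ileum (4.15 against 105 TPM, log2 difference -3.91, adjusted p = 8.2e-05) and the duodenum/jejunum (63.4 against 511 TPM, log2 difference -3.04, adjusted p = 8.7e-06). Gsta4 was higher in the colon (93.7 against 47.7 TPM, log2 difference 0.97, adjusted p = 2.2e-06), the glutathione synthesis enzyme Gclc was higher in the ileum (49.2 against 27.5 TPM, log2 difference 0.83, adjusted p = 3e-04), and Cyp2c55 was lower in the duodenum/jejunum (14.98 against 75.4 TPM, log2 difference -2.40, adjusted p = 0.00049). Of the epithelial transcription factors 7 of 14 were lower in the BALB/cJ colon, led by Cdx1 (133 against 174 TPM, log2 difference -0.39, adjusted p = 0.00023) and Foxa1 (21.9 against 32.1 TPM, log2 difference -0.53, adjusted p = 0.00087). Limma called 0 of 15 in the ileum and 0 of 16 in the duodenum/jejunum, with 1 and 3 at unadjusted p under 0.05. Of other glycosyl- and carbohydrate sulfotransferases, 2 of 17 were higher and 1 lower in the BALB/cJ colon, with Chst4 (81.8 against 55.8 TPM, log2 difference 0.55, adjusted p = 2.4e-06) and Chst1 (3.75 against 2.64 TPM, log2 difference 0.38, adjusted p = 0.0077) the higher ones. In the ileum 3 of 15 were higher and 1 was lower, the galactose sulfotransferase Gal3st2 (76.8 against 179 TPM, log2 difference -1.28, adjusted p = 0.0041), with Chst1 (1.79 against 1.13 TPM, log2 difference 0.38, adjusted p = 0.026) among the higher, and 0 of 15 were called by limma in the duodenum/jejunum, where 1 had unadjusted p under 0.05.

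The other 18 members stayed under a mean of 1 TPM in every group. Of the Sult2a genes, hydroxysteroid sulfotransferases of liver that also act on bile acids, Sult2a1, Sult2a2, Sult2a3, Sult2a4, Sult2a5, Sult2a6 and Sult2a7 reached at most 0.185 TPM in any library. Sult1e1, the oestrogen sulfotransferase, reached 0.378 TPM, Sult1c1 0.184, Sult3a1 0.0745, Sult3a2 0.261 and Sult6b1 1.10 TPM. Of the glucuronosyltransferases, Ugt1a8 reached 1.28 TPM, Ugt1a10 1.07, Ugt2b1 0.718, Ugt3a2 0.109, Ugt2b37 0.0968 and Ugt2a1 0.0871 TPM. None of the 42 members was at 0 in all 39 libraries.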

How the data were processed

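RNA of 39 gut libraries was extracted with a PureLink kit and sequenced from TruSeq total RNA libraries after RiboZero depletion, per the labels' protocols. The deposited tables hold log2(TPM + 1) per gene symbol, 1 table per tissue. The authors used kallisto 0.44.0 and GRCm38, per the submitters' processing notes, with a transcript annotation not given in the sources used here. Because the deposited log2 values keep no read depth, precision rests on the spread between mice, and no interval from counts is given. No column belonged to a sample of another series (0 columns), and no libraries were identical.

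Within a tissue, strains were compared by limma 3.58.1 (R 4.3.3) on log2(TPM + 1), using a variance trend. Genes entered a fit if 6 or more of its libraries held 1 TPM or more. Tissues and the change of the strain difference between tissues were fitted over all 39 libraries with 6 group means, the latter by a moderated F test with 2 degrees of freedom. P-values were adjusted by Benjamini-Hochberg over all genes tested, and adjusted p under 0.05 was called. A positive log2 difference means higher in BALB/cJ, or in the first-named tissue. The fits were tested on simulated data. Entries named by digits alone (26) were left out. The 3 tables were joined by symbol.

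The members and the lists of related genes and markers were chosen with earlier results of these data known. Members with a mean of at least 1 TPM in a group are named with their level, and full values are given for those called between strains and for the 3 highest Ugt1, Ugt2 and Sult members of each tissue. At most 2 called genes per related list and strain difference are named. Some results of the related lists are not reported here. Libraries of a strain with the same number in the labels were taken to come from the same animal, so the mouse as a replicate block was an alternative. Deviations of a mouse's libraries from the group means correlated from -0.162 to 0.382 across genes, and were negative only for pairs with the ileum of C57BL/6J mouse 2. Replicate numbers of the strains name different animals. Other alternatives were a pseudocount of 0.1, no filter, median-ratio size factors, leaving out C57BL/6J mouse 2, epithelial or B cell marker levels as covariates, and leaving out libraries low in a regional marker. Promoter sequences are from RefSeq and transcripts from GENCODE M21.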

Additional observations from a re-analysis of the deposited data

Results flagged for a closer look

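In the group of 7 C57BL/6J ileum libraries, that of mouse 2 stood apart as the highest for 10 members, by Dixon's gap at the 95% level. It held 219 TPM of Ugt1a1, 7.15 TPM of Ugt1a5, 33.003 TPM of Ugt1a6a, 152 TPM of Ugt1a7c and 4.95 TPM of Ugt1a9. It also held 96.9 TPM of Ugt2a3, 444 TPM of Ugt2b34, 24.5 TPM of Ugt2b35, 516 TPM of Sult1b1 and 30.04 TPM of Sult6b2. The remaining 6 libraries of the group reached at most 85.8 TPM of Ugt1a1, 27.3 TPM of Ugt2a3 and 7.87 TPM of Ugt1a6a. The library carried 51.2 TPM of Tmprss15 and 22.1 TPM of Fabp6, against its label, and their part in these values was not tested.

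In other libraries, Sult1a1 reached 13.7 TPM and Ugt2b36 10.2 TPM in the ileum of C57BL/6J mouse 3, each the highest of its group. Ugt2b35 reached 18.7 TPM in the ileum of BALB/cJ mouse 2, and Sult1d1 fell to 190.0 TPM in the colon of BALB/cJ mouse 5, the lowest of its group. Of 120 groups examined 14 had such a library, 10 of them through the ileum library of C57BL/6J mouse 2. For independent groups chance alone puts about 1 in 20 past the critical gap. These groups are members measured in the same libraries, and some members share sequence, so the count cannot be held against that rate.

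The strain difference itself differed between the tissues, by limma's F test over all genes, for Ugt2b36 (adjusted p = 0.013), Ugt2b5 (adjusted p = 0.024), Ugt1a6a (adjusted p = 0.03) and Sult1a1 (adjusted p = 0.035).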

How the results depend on the processing

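Results without C57BL/6J replicate 2 use 12 libraries of a tissue or 36 in all. The colon count of called members between strains (1) became 2 without the low-value filter, 0 with the epithelial and 0 with the B cell marker level as covariate, 2 without C57BL/6J replicate 2 and with median-ratio size factors, and 3 without the libraries low in Car1. In that order 15.9%, 5.88%, 2.11%, 24.4% and 15.8% of all genes were called, against 25.3% in the main fit. Without the filter 35 members were tested in the colon, against 18 with it. Ugt1a7c in the colon turned from -0.38 to 0.068 with the B cell covariate. The ileum count (2) became 1 with median-ratio size factors, 5 without C57BL/6J replicate 2, 4 with the epithelial and 5 with the B cell covariate. Beside these, 11.7%, 23.5%, 21.4% and 12% of all genes were called in the ileum, against 20.4% in the main fit. The duodenum/jejunum count (6) became 2 with the epithelial covariate and was 4 without C57BL/6J replicate 2, without the filter or with the B cell covariate, each time losing Ugt1a5 and Ugt1a9. It was 5 with median-ratio size factors, which lost Ugt1a9, and 5 with a pseudocount of 0.1, which lost Ugt1a5. Shares of all genes called there were 9.5% in the main fit, 6.46% with the epithelial covariate and 8.93% without C57BL/6J replicate 2. They were 5.9% without the filter, 9.41% with the B cell covariate, 11.4% with the size factors and 9.25% with that pseudocount. Members tested in the duodenum/jejunum rose from 21 to 38 without the filter. The count of strain differences that varied between tissues (4) became 7 without C57BL/6J replicate 2, 7 without it and with median-ratio size factors, and 9 without it and with the replicate block. Beside these counts 10.7%, 7.47% and 14.3% of all genes were called, against 9.21% in the main fit. With the replicate block alone the count was 6, beside 11.2% of all genes. The tissue comparisons with the block gave 14 called members for colon against ileum, 17 for colon against duodenum/jejunum and 17 for ileum against duodenum/jejunum, against 16, 17 and 17 without it. Of all genes 67.3%, 74.3% and 44.5% were called with the block, against 65.6%, 72.9% and 42% without it. Without C57BL/6J replicate 2 colon against ileum gave 18, with or without the replicate block, beside 67.4% and 65.2% of all genes. The block ended the colon against ileum calls of Ugt2b35 and Ugt2b5, added Ugt1a6b and Ugt1a9 to the strain differences that varied between tissues, and changed no other call. The B cell covariate, the combined settings and the omission of libraries low in Car1 or Gkn3 were chosen after seeing the data. Over all genes, calls in the colon went from 3986 to 927 with the epithelial covariate, 333 with the B cell covariate and 2380 without the libraries low in Car1. In the ileum they went from 3169 to 1824 with median-ratio size factors and 1863 with the B cell covariate. For differences between tissues in the strain effect they went from 1577 to 2438 without C57BL/6J replicate 2 and with the replicate block. The cause was not tested. Read depth is unknown, so it sets no stated limit on members near 0.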
